A study of Cairina moschata with 9 samples.

Results

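RNA was sequenced from the abdominal fat of 9 Muscovy ducks (Cairina moschata), with 3 libraries at 12 weeks, 3 at 35 weeks and 3 at 66 weeks of age. Per the series design the 3 libraries of an age come from 3 birds whose body weight was normal, so a library is read as a bird. The sources used here do not state strain, sex, diet or laying state, and the 9 birds share the tissue and the species. Lane codes in the labels go with age (3 at 12 weeks, 4 at 35 weeks, 5 at 66 weeks), so differences between birds of the same age lie within a lane code.

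The genes described here are the 150 that varied most between birds of the same age. Values were deposited as FPKM, a fragment number corrected for transcript length and sequencing depth. Of the 14814 genes in the table, 7382 averaged 10 FPKM or more and were above 0 in all 9 libraries, and these are called eligible. For each of them the variance of log2(FPKM + 1) over the 3 birds of an age was averaged over the 3 ages, and the 150 with the highest average were taken. The spread between birds therefore chose the genes, and every value of it below is a description with no test. The table names genes by Ensembl-type identifiers and pairs none of them with a symbol. Members are accordingly called by their rank in this variance, with 4 identifiers printed, and markers of adipocytes or of any other cell type could not be looked up.

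Abdominal fat is the main lipid store of the avian body cavity. It is a mixed tissue, in which lipid-filled adipocytes lie among stromal, vascular and immune cells, and in birds much of the fatty acid it stores is made in the liver. In RNA from whole tissue, fewer cells of a type and less RNA per cell cannot be told apart. A gene that differs between birds of the same age may do so in the bird or in the piece of tissue sampled, and the files hold no second sample of a bird that would separate these.

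In the members, 12-week replicate 3 was less like the birds of its own age than like those of either later age. The members were chosen for differences within an age, many of them through this library, so its low likeness to its own age across them is set by the choice and is given as a description. Pearson's r of log2(FPKM + 1) across the 150 members, which are not independent replicates, was 0.426 and 0.342 with 12-week replicates 1 and 2. It was 0.868 and 0.875 with 35-week replicates 2 and 3, and 0.628 with 35-week replicate 1. It was 0.650, 0.680 and 0.545 with 66-week replicates 1, 2 and 3. In turn, 35-week replicate 1 had r of 0.832 and 0.742 with 12-week replicates 1 and 2, and of 0.790 and 0.702 with 35-week replicates 2 and 3. Across the 7232 eligible genes outside the list, 12-week replicate 3 had r of 0.911 and 0.907 with its own age, of 0.932, 0.954 and 0.960 with the 35-week birds and of 0.887, 0.892 and 0.872 with the 66-week birds. Outside the members this library was thus still closer to the 35-week birds than to its own age, but not to the 66-week birds. There 35-week replicate 1 had r of 0.950 and 0.935 with 12-week replicates 1 and 2 and of 0.977 and 0.950 with 35-week replicates 2 and 3, so it was closest to a bird of its own age. Whether a library carries the label of another age was not tested, and every spread within an age below takes the labels as given.

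The average variance ran from 0.919 to 12.4 over the 150 members, with a median of 1.32, beside a median of 0.054 over all eligible genes. The 2 members just inside the limit had 0.9202 and 0.9195, and the 2 genes just outside it had 0.9192 and 0.9191, so the list ends in a continuum. The median SD between birds was 1.15 on the log2(FPKM + 1) scale in the members and 0.232 in all eligible genes. In fold terms, the highest bird of an age lay a median of 7.98 times above the lowest at 12 weeks, 3.60 times at 35 weeks and 3.02 times at 66 weeks. Over all eligible genes these medians were 1.39, 1.29 and 1.29. A difference of at least 10-fold between birds of the same age occurred in 71 members, at 12 weeks in 50, at 35 weeks in 18 and at 66 weeks in 20. Among all eligible genes it occurred in 51, 18 and 20 at these ages, so nearly all such genes are members, as the rule makes likely. A difference of at least 10-fold occurred at all 3 ages in 3 members, and a difference of at least 2-fold at all 3 ages in 83.

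**Figure D1:**
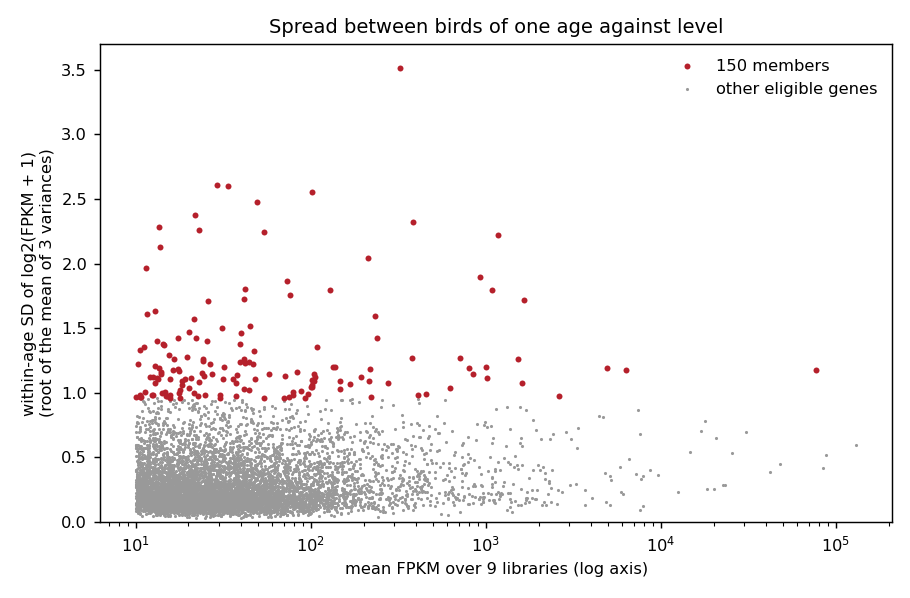
Each point is 1 of the 7382 eligible genes, with its mean FPKM over the 9 libraries on a log axis and its SD of log2(FPKM + 1) between birds of the same age (the root of the average of 3 variances). The 150 members, in red, start at the limit of the rule and occur from 10.1 to 76545 FPKM.

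The members were not confined to genes of low level. Their mean level had a median of 37.3 FPKM, with quartiles at 17.4 and 104 FPKM, beside 30.2 FPKM with quartiles at 17.5 and 61.4 FPKM in all eligible genes. At least 100 FPKM on average was reached by 44 members (29.3%), beside 15.2% of all eligible genes, and at least 1000 FPKM by 11 members (7.33%), beside 2.05%. The highest of them, at rank 70, had 69797, 11310 and 48870 FPKM in the 12-week birds, 71202, 157699 and 25360 FPKM in the 35-week birds and 56582, 105128 and 142953 FPKM in the 66-week birds. Its lowest bird was at 12 weeks and its highest at 35 weeks, and the 3 ages overlapped. At the other end, 14 members (9.33%) were under 1 FPKM in at least 1 library, beside 0.244% of all eligible genes. The number of fragments behind a value is not given, and for a short gene model a high FPKM can rest on few of them.

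The variation was spread unevenly over the libraries, with 12-week replicate 3 holding the most. Of the sum of squared deviations from the age means, it held 32.4% in the members and 27.3% in all eligible genes. The other libraries held between 3.57% (66-week replicate 2) and 13.9% (12-week replicate 2) in the members. Within its own age, 12-week replicate 3 held 58.3% of the members' sum of squares. The corresponding shares were 45.0%, 19.9% and 35.1% for 35-week replicates 1, 2 and 3, and 36.9%, 18.0% and 45.1% for 66-week replicates 1, 2 and 3. By age, 55.5% of the members' sum of squares fell at 12 weeks, 24.6% at 35 weeks and 19.8% at 66 weeks, beside 51.2%, 25.3% and 23.6% in all eligible genes. The members are among the eligible genes, so part of the likeness of these shares is built in. Shares also differed, as in 66-week replicate 2, with 3.57% in the members and 6.15% in all eligible genes. In both sets 12-week replicate 3 held the most, with a somewhat larger share in the members. Without that library the shares of the other 8 ran from 6.80% (12-week replicates 1 and 2) to 21.5% (35-week replicate 1) in the members. In all eligible genes the same libraries held 8.70% and 16.5%, and 35-week replicate 3 held the most, 18.0%.

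**Figure D2:**
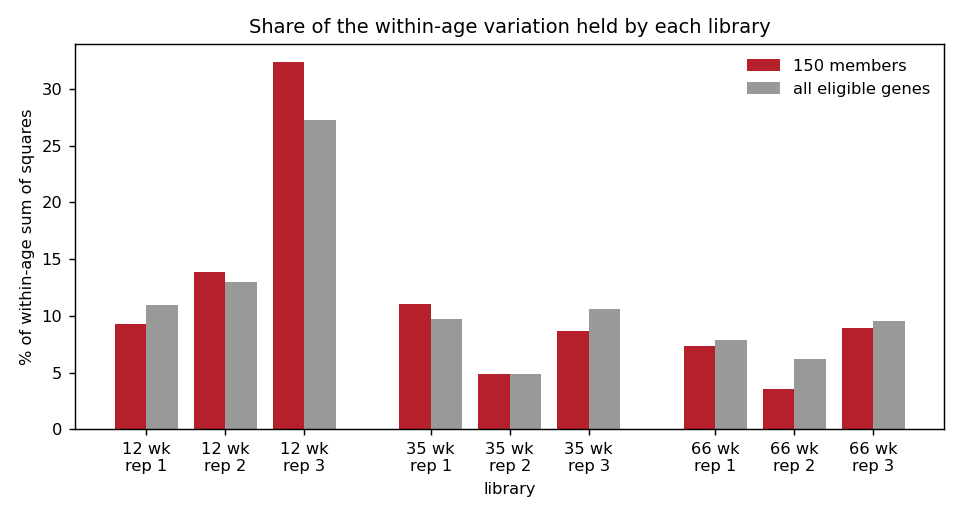
Bars give the percentage of the within-age sum of squared deviations of log2(FPKM + 1) that each library holds, for the 150 members (red) and for all 7382 eligible genes (grey). The bar of 12-week replicate 3 is the tallest in both sets, at 32.4% and 27.3%.

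Counted by gene, 12-week replicate 3 held the largest single deviation in 76 of the 150 members (50.7%), beside 30.6% of all eligible genes. It lay above its age mean in 35 of the 76 and below it in 41, so this bird was not shifted in a single direction. The next were 35-week replicate 3 with 16 members, 66-week replicate 3 with 14, and 12-week replicate 1 and 66-week replicate 1 with 12 each. In 35-week and 66-week replicates 3 these deviations were mostly downward, in 12 of 16 and 12 of 14 members. For libraries other than 12-week replicate 3 the shares over all eligible genes are not given here. Whether this lean is particular to the members was not tested. Measures of the whole library did not set 12-week replicate 3 far apart. It had 1932 genes listed at 0, beside 1693 to 2039 in the other 8 libraries, and 11083 genes at 1 FPKM or more, beside 10814 to 11291. Its FPKM sum of 1214260 and its 28.6% of that sum in the 10 highest genes were each the lowest of the 9, and the next lowest were 1255226 in 12-week replicate 1 and 33.1% in 35-week replicate 3. Their part in the result was not tested.

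The members' deviations ran largely along a single axis. After each age was centred on its mean, the first principal component held 60.3% of the members' variation, beside 49.97% in all eligible genes. In it, 12-week replicate 3 had a weight of 0.719, against -0.301 and -0.418 for 12-week replicates 1 and 2. At 35 weeks replicate 1 had -0.357 and replicates 2 and 3 had 0.152 and 0.205. The 66-week birds had small weights of 0.0719, 0.058 and -0.13. The second component, with 14.5%, set 66-week replicate 3 (0.70) against 66-week replicate 1 (-0.621). The third, with 10.2%, set 35-week replicate 1 (0.44) against 35-week replicate 3 (-0.707). Without 12-week replicate 3 the first component held 39.8% of the members' variation, beside 32.1% in all eligible genes. In the members it set 35-week replicate 1 (-0.657) and 66-week replicate 3 (-0.433) against 35-week replicates 2 and 3 (0.253 and 0.404) and 66-week replicate 1 (0.367). In all eligible genes these weights had the same signs, at -0.649, -0.337, 0.0651, 0.584 and 0.288, so this axis was not particular to the members. The weights of the 35-week and 66-week birds thus had the same signs with and without 12-week replicate 3. Those of 66-week replicates 1 and 3 were small with it and larger without it.

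Members were then grouped by how they varied together, with average linkage on 1 minus Pearson's r of the centred values and groups formed at a distance of 0.5. Of the 150 members, 134 fell into 5 groups of at least 5 genes, and the first 2 groups held 107 (71.3%). Group 1 had 54 members, group 2 had 53, group 3 had 16, group 4 had 6 and group 5 had 5. The median r between members of group 1 and members of group 2 was -0.71, and the groups were formed on these same correlations. Their mean deviations had opposite signs in every library, less clearly so at 66 weeks. There replicates 1, 2 and 3 had 0.55, 0.22 and -0.77 in group 1, against -0.12, -0.16 and 0.28 in group 2. An absolute r of at least 0.9 was seen in 7.31% of the 11175 pairs of members, beside 1.67% of the pairs of all eligible genes. Each r rests on 9 values with 6 degrees of freedom.

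**Figure D3:**
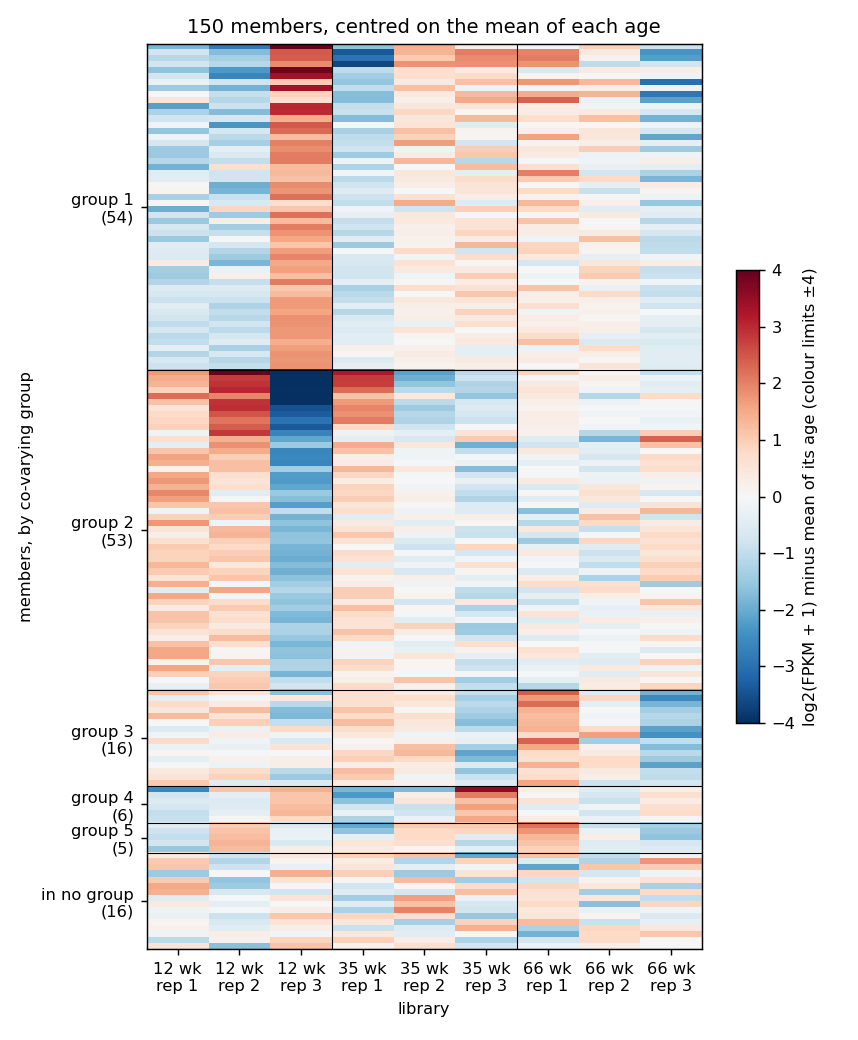
Rows are the 150 members, ordered by co-varying group and then by rank, and columns are the 9 libraries. Colour gives log2(FPKM + 1) minus the mean of its age (red above, blue below, limits of 4 in either direction). Group 1 is red and group 2 blue in 12-week replicate 3, and most of these genes take the opposite colour in 35-week replicate 1.

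Group 2 held 10 of the first 20 ranks, beside 9 in group 1. Without 12-week replicate 3, at most 10 members of group 2 stayed in 1 group, as given in the closing section. The members of group 2 were low in 12-week replicate 3 and mostly high in 35-week replicate 1. The median over its 53 members was 58.1, 69.8 and 6.73 FPKM in the 12-week birds. It was 33.9, 16.7 and 10.1 FPKM in the 35-week birds and 27.2, 30.6 and 49.0 FPKM in the 66-week birds. In all 53 the lowest 12-week bird was replicate 3, and in 42 the highest 35-week bird was replicate 1. No 66-week bird was the highest in as many members, with replicate 1 in 16, replicate 2 in 12 and replicate 3 in 25. The lowest was replicate 1 in 17, replicate 2 in 26 and replicate 3 in 10. Over all eligible genes these were the lowest in 45.1%, 25.8% and 29.1%.

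The member of rank 1, ENSAPLG00000010999, had 386, 2241 and 0.889 FPKM in the 12-week birds. It had 260, 5.44 and 12.7 FPKM in the 35-week birds and 7.66, 3.96 and 1.45 FPKM in the 66-week birds. The gene was thus at 260 FPKM or more in 12-week replicates 1 and 2 and in 35-week replicate 1, and at 12.7 FPKM or less in the other 6 libraries. The 12-week birds differed 2520-fold and the 35-week birds 47.8-fold.

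ENSAPLG00000004506, at rank 2, had the same course at a lower level, with 58.1, 145 and 0.0769 FPKM at 12 weeks, 53.4, 1.01 and 3.41 FPKM at 35 weeks and 0.661, 1.00 and 0.48 FPKM at 66 weeks. At rank 3 the values were 64.9, 189 and 0.317 FPKM, then 44.3, 1.21 and 1.87 FPKM, and then 1.18, 0.856 and 0.248 FPKM at the same ages. That of rank 6 had 31.5, 142 and 0.11 FPKM, then 20.1, 1.11 and 0.975 FPKM, and then 1.09, 0.337 and 0.109 FPKM. In each of these genes 12-week replicate 2 was the highest of the 9 libraries, 12-week replicate 1 and 35-week replicate 1 came next, and the other 6 libraries were below 4 FPKM. The members of ranks 9, 12 and 14 shared this order, with 144, 94.3 and 71.7 FPKM in 12-week replicate 2 and at most 2.03 FPKM in the 6 low libraries.

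Of the 53 members of group 2, 9 were below 10 FPKM in all 66-week birds, namely the 7 just given and those of ranks 16 and 17. In 39 others every 66-week bird was at 10 FPKM or more. Rank 7 had 838, 681 and 8.80 FPKM at 12 weeks and 38.9, 22.9 and 5.06 FPKM at 35 weeks, but 704, 243 and 925 FPKM at 66 weeks. In this gene 12-week replicate 3 lay within the range of the 35-week birds, and every 66-week bird lay above every 35-week bird. At rank 22 the values were 1041, 1791 and 158 FPKM at 12 weeks, 275, 232 and 751 FPKM at 35 weeks and 1229, 474 and 8955 FPKM at 66 weeks. Its highest value, in 66-week replicate 3, was 18.9 times that of 66-week replicate 2. A subset of 28 members of group 2, which stayed together at a distance of 0.3, had a median of 67.2, 140 and 3.42 FPKM in the 12-week birds and of 27.4, 9.88 and 7.89 FPKM in the 35-week birds. Another subset of 8 members had its highest median, 128 FPKM, in 35-week replicate 1, but not all of them peaked there. Rank 87, for example, had 211 FPKM in that library and 410 FPKM in 66-week replicate 2.

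**Figure D4:**
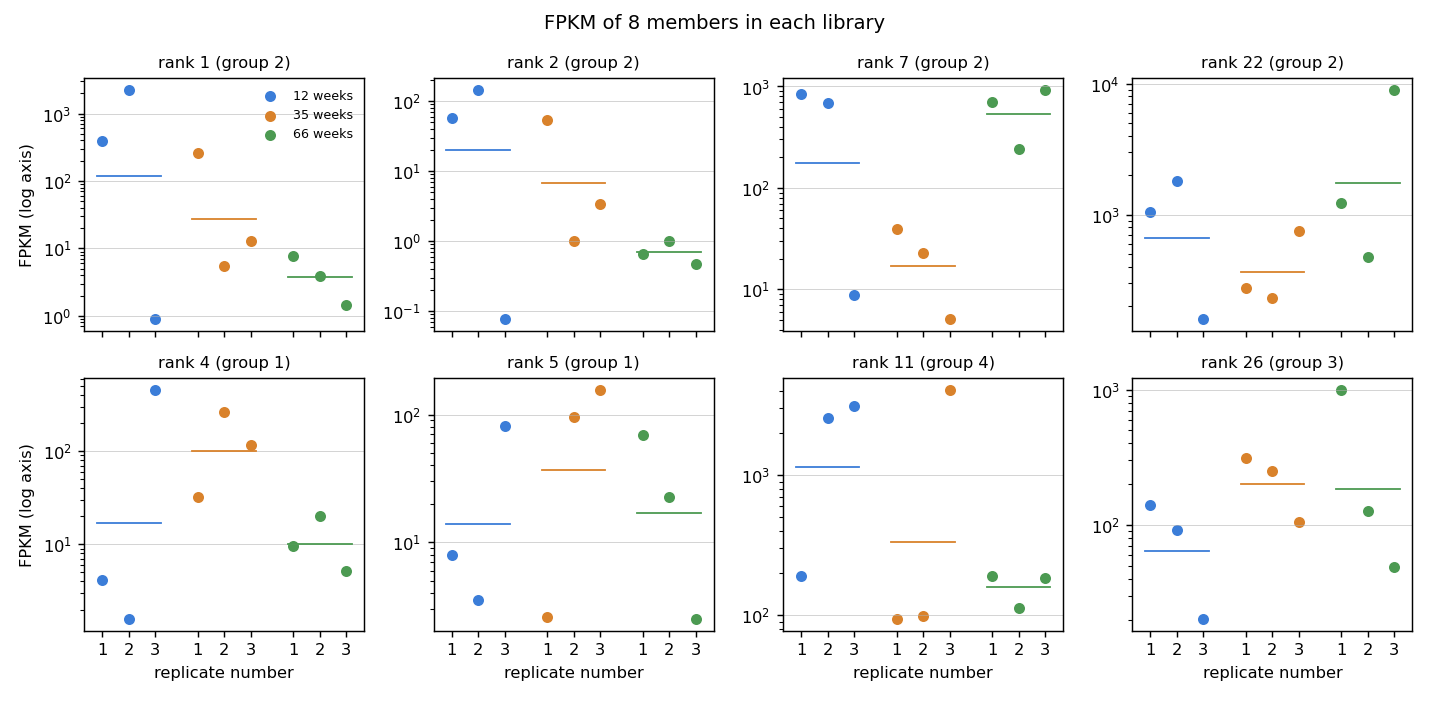
Each panel gives the FPKM of 1 member in the 9 libraries on a log axis, coloured by age, with the mean of each age on the log2(FPKM + 1) scale as a line. The members of ranks 1 and 2 are high in 12-week replicates 1 and 2 and in 35-week replicate 1, and the member of rank 4 is high in 12-week replicate 3 and 35-week replicate 2 and the lowest of its age in 12-week replicate 2 and 35-week replicate 1.

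Group 1 ran the other way, high in 12-week replicate 3 and low in 35-week replicate 1. The median over its 54 members was 11.6, 10.7 and 63.2 FPKM in the 12-week birds, 19.4, 43.4 and 61.7 FPKM in the 35-week birds and 29.9, 18.4 and 5.77 FPKM in the 66-week birds. In all 54 the highest 12-week bird was replicate 3, in 47 the lowest 35-week bird was replicate 1, and in 44 the lowest 66-week bird was replicate 3.

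ENSAPLG00000002226, at rank 4, had 4.10, 1.57 and 453 FPKM in the 12-week birds, 32.3, 266 and 116 FPKM in the 35-week birds and 9.68, 20.1 and 5.16 FPKM in the 66-week birds. Its value in 12-week replicate 3 was 288 times the lowest of that age and above every 35-week bird. At rank 13 the values were 22.2, 13.6 and 1060 FPKM at 12 weeks, 81.4, 262 and 209 FPKM at 35 weeks and 53.2, 102 and 99.0 FPKM at 66 weeks. That of rank 19 had 185, 137 and 5179 FPKM, then 464, 2116 and 801 FPKM, and then 268, 329 and 239 FPKM at these ages. In all 3 genes 12-week replicate 3 was the highest of the 9 libraries, and 35-week replicate 1 was the lowest of its age.

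Group 1 was made up of subsets that differed in the 66-week birds. A subset of 33 members, together at a distance of 0.3, had medians of 10.3, 10.02 and 89.97 FPKM at 12 weeks, 30.1, 42.6 and 35.1 FPKM at 35 weeks and 10.8, 12.7 and 5.97 FPKM at 66 weeks. A subset of 14 members had 13.5, 10.04 and 58.3 FPKM, then 9.88, 72.7 and 89.5 FPKM, and then 39.3, 20.8 and 2.84 FPKM. In these medians the low birds were 35-week replicate 1 and 66-week replicate 3 as well as 12-week replicates 1 and 2. Not every member had this course. Rank 56 was lowest at 35 weeks in replicate 3 (9.03 FPKM), and rank 10 at 66 weeks in replicate 2 (19.0 FPKM). Rank 5 belongs to this subset, with 8.01, 3.52 and 81.5 FPKM at 12 weeks, 2.60, 96.1 and 156 FPKM at 35 weeks and 69.7, 22.6 and 2.497 FPKM at 66 weeks. In this gene every age thus had a bird at 8.01 FPKM or less and another at 69.7 FPKM or more.

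Group 3 varied mainly between the 66-week birds. The median over its 16 members was 26.02, 31.1 and 18.3 FPKM in the 12-week birds, 40.9, 33.9 and 15.3 FPKM in the 35-week birds and 68.0, 34.6 and 9.59 FPKM in the 66-week birds. Replicate 1 was the highest 66-week bird in 14 of the 16 and replicate 3 the lowest in 14, and 35-week replicate 3 was the lowest of its age in all 16. The member of rank 26, the first of this group, had 141, 91.4 and 20.1 FPKM at 12 weeks, 313, 251 and 105 FPKM at 35 weeks and 994, 128 and 49.0 FPKM at 66 weeks. Of the 16 members, 9 had their highest variance at 66 weeks, beside 8 of the 54 in group 1 and 3 of the 53 in group 2.

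Groups 4 and 5 were small. In all 6 members of group 4 the highest 35-week bird was replicate 3 and the highest 12-week bird was replicate 3. ENSAPLG00000008019, at rank 11, belongs to group 4, with 192, 2559 and 3093 FPKM in the 12-week birds, 93.8, 98.8 and 4044 FPKM in the 35-week birds and 191, 114 and 184 FPKM in the 66-week birds. It was at 2559 FPKM or more in 3 libraries and at 192 FPKM or less in the other 6. In all 5 members of group 5 the highest bird was replicate 2 at 12 weeks and replicate 1 at 66 weeks. The remaining 16 members fell into 8 sets of fewer than 5 genes. Among them the member of rank 48 had 688, 306 and 721 FPKM at 12 weeks, 2356, 2775 and 302 FPKM at 35 weeks and 4029, 919 and 1603 FPKM at 66 weeks.

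The same directions were found at 35 weeks in genes ranked by their variance at 12 weeks alone. Eligibility still used all 9 libraries, through the mean of at least 10 FPKM and the values above 0. The 35-week values were therefore not wholly held out. For this, the 150 eligible genes with the highest variance at 12 weeks alone were taken, a choice made after the data had been seen. Of these, 76 were lowest and 67 highest in 12-week replicate 3. Of the 76, 63 (82.9%) had replicate 1 as the highest 35-week bird, beside 36.5% of all eligible genes. Of the 67, 52 (77.6%) had replicate 1 as the lowest 35-week bird, beside 32.8%. Both bases take all eligible genes, whatever their direction in 12-week replicate 3. The shares among eligible genes of the same direction were not computed. The first component over all eligible genes likewise set 12-week replicate 3 (0.719) against 35-week replicate 1 (-0.337). The median deviation in 35-week replicate 1 was 0.57 in the 76 genes and -0.54 in the 67, on the log2(FPKM + 1) scale.

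The converse choice gave a similar picture. Of the 150 genes with the highest variance at 35 weeks alone, 57 were lowest in 35-week replicate 1, and in 47 of them (82.5%) 12-week replicate 3 was the highest of its age, beside 44.3% of all eligible genes. In 46 (76.7%) of the 60 that were highest in 35-week replicate 1, 12-week replicate 3 was the lowest of its age, beside 35.6%. Here too the bases take all eligible genes, whatever their direction. At 66 weeks the 76 genes low in 12-week replicate 3 were highest in replicates 1, 2 and 3 in 31.6%, 21.1% and 47.4%, beside 23.1%, 34.6% and 42.2% of all eligible genes. They were lowest in these replicates in 25%, 48.7% and 26.3%, beside 45.1%, 25.8% and 29.1%. In the 67 genes high in 12-week replicate 3, 66-week replicate 3 was the lowest of its age in 65.7%, beside 29.1%. Both counts between 12 and 35 weeks rest on 12-week replicate 3. The genes chosen at 35 weeks can be read at 66 weeks without it, apart from its part in eligibility. In the 57 genes lowest in 35-week replicate 1, 66-week replicate 3 was the lowest of its age in 56.1%, beside 29.1% of all eligible genes. In the 60 highest in 35-week replicate 1, the highest 66-week bird was replicate 1, 2 or 3 in 31.7%, 36.7% and 31.7%. There too 66-week replicate 3 was the lowest of its age more often than in all eligible genes, in 46.7% beside 29.1%. Both sets thus leaned to the same lowest 66-week bird, although they were opposite at 35 weeks. Genes vary together, so these shares are counts over genes and not over independent replicates.

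**Figure D5:**
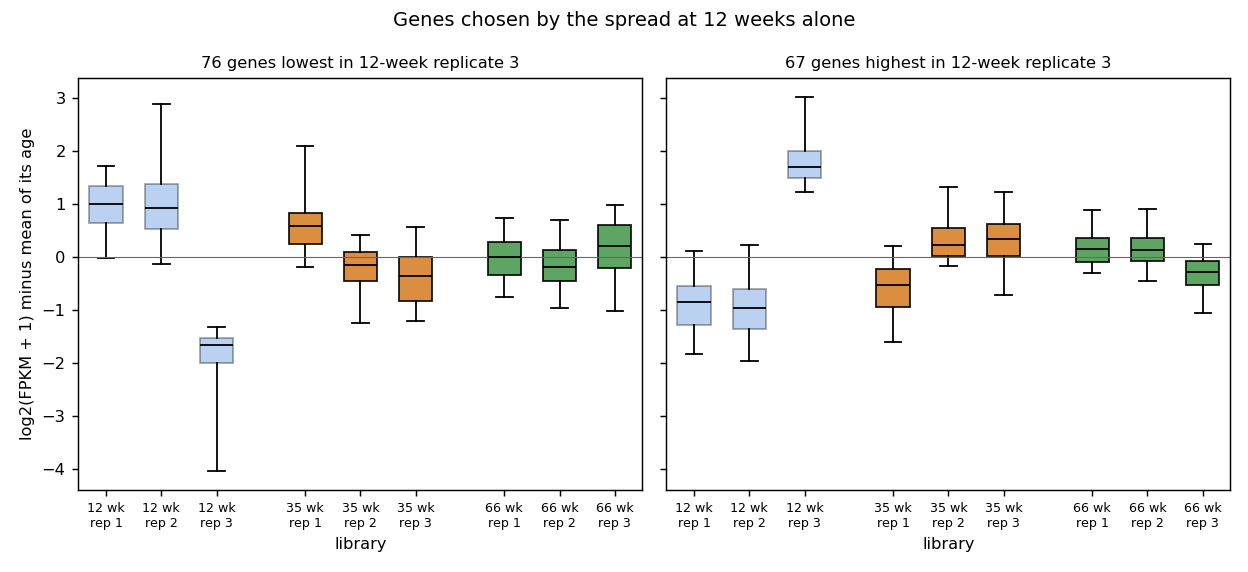
Boxes give the deviation of log2(FPKM + 1) from the mean of its age (median, quartiles, and whiskers to the 5th and 95th percentiles over genes) for genes chosen by their variance at 12 weeks alone, in the 76 lowest (left) and the 67 highest (right) in 12-week replicate 3. The pale 12-week boxes show the choice itself, and at 35 weeks replicate 1 lies above the others on the left, at a median of 0.57, and below them on the right, at -0.54.

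Genes that varied at 1 age also tended to vary at the others, although the lists differed. The 150 genes of highest variance at 12 weeks shared 38 (25.3% of either list) with the 150 at 35 weeks and 28 (18.7%) with those at 66 weeks, and the lists of 35 and 66 weeks shared 47 (31.3%). A list of 150 is 2.03% of the eligible genes. The genes chosen at 12 weeks had a median variance of 0.375 at 35 weeks and 0.229 at 66 weeks, beside 0.034 and 0.0348 in all eligible genes. Of these 150, 144 lay above the median of all eligible genes at 35 weeks and 137 at 66 weeks. Low fragment numbers raise the variance of a gene at every age, and their part in this result was not tested.

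Outside the list, some genes had profiles close to those of the groups and others had opposite ones. The share to be seen without any relation was not computed. Of the 7232 other eligible genes, 169 (2.34%) had r of at least 0.9 with the mean profile of group 1 and 277 (3.83%) with that of group 2. Of the 4109 genes tested for age but not eligible, 149 (3.63%) and 90 (2.19%) did so. For groups 3 and 5 these shares were at most 0.414% in either set, and for group 4 they were 1.44% in both. Within the list, 20 and 23 members reached that r with the profiles of groups 1 and 2, but the members of a group are themselves part of its profile. The opposite course, an r of -0.9 or less with groups 1 and 2, was seen in 307 and 291 of the 7232 genes, more than had the same course. Of the 4109 genes, 59 and 221 had it.

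Differences in mean level between the 3 ages were not used by the rule, which used levels only for eligibility. Each age has its own lane code, so age and lane code cannot be told apart in any comparison of ages below. They were compared with limma on log2(FPKM + 1) over the 11491 genes that averaged 1 FPKM or more, in which all 150 members were included. The spread between birds, pooled over the 3 ages, is the yardstick of this test. Genes chosen for a large spread therefore pass it less easily, and a low count of calls is built into the choice. Between 35 and 12 weeks, 0 members were called at an adjusted p of 0.05 (limma), beside 0.0174% of all genes tested. At an unadjusted p of 0.05, limma gave 5 members (3.33%), beside 12.2% of all genes. Between 66 and 35 weeks, 1 member was called, lower at 66 weeks, beside 2.38% of all genes tested called lower and 3.52% called in either direction. At an unadjusted p of 0.05, limma gave 32 members (21.3%) there, beside 25.5% of all genes. Between 66 and 12 weeks, 0 members were called, beside 0.366% of all genes tested, and limma gave 12 members (8%) at an unadjusted p of 0.05, beside 16.9%.

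Fold changes between ages were large in the members, as were their errors. A large spread between birds makes the mean of an age uncertain, so large absolute fold changes are in part built into the choice. The median absolute log2 fold change was 0.87 between 35 and 12 weeks, 1.30 between 66 and 35 weeks and 0.89 between 66 and 12 weeks, beside 0.20, 0.28 and 0.23 in all eligible genes. The median SE of a member's log2 fold change was 0.82, beside 0.23 in all genes tested. In all genes tested the median absolute log2 fold changes were 0.22, 0.31 and 0.26 in the same comparisons. ENSAPLG00000010999 had a log2 fold change of -4.64 ± 2.48 (SE) between 66 and 12 weeks, at an adjusted p of 0.374 (limma), and ENSAPLG00000004506 one of -3.63 ± 1.85 (SE), at 0.352. ENSAPLG00000002226 had a log2 fold change of -3.18 ± 1.80 (SE) between 66 and 35 weeks, at an adjusted p of 0.301 (limma).

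The member called between 66 and 35 weeks was that of rank 120, in group 1, singled out here after its values were seen. It had 11.3, 7.58 and 3.42 FPKM in the 66-week birds, against 136, 217 and 218 FPKM in the 35-week birds, a difference of -4.59 ± 0.71 (SE) on the log2 scale whose adjusted p was 0.0277 (limma). The 66-week and 35-week birds did not overlap, and its spread lay at 12 weeks, with 19.7, 10.8 and 90.1 FPKM. It passed in 6 of 13 alternatives, with adjusted p from 0.00333 to 0.108 (limma), and each of the 6 libraries of these ages, when left out, ended the call. With the replicate number as a block its adjusted p was 0.0548 (limma).

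By group, the median differences between ages had opposite signs in groups 1 and 2, although 1 of their 107 members passed the test in any comparison (limma). In group 1 the median log2 fold change was 0.85 between 35 and 12 weeks (positive in 48 of 54 members), -1.38 between 66 and 35 weeks (negative in 46) and -0.55 between 66 and 12 weeks (negative in 37). In group 2 it was -0.88 (negative in 39 of 53), 0.98 (positive in 35) and 0.36 (positive in 36) in the same comparisons. An unadjusted p of 0.05 between 35 and 12 weeks was reached by 3 members of group 1 and 2 of group 2 (limma). The comparisons share birds pairwise. Over all genes tested the medians were 0.02, 0.02 and 0.03. Without 12-week replicate 3, group 1 had medians of 1.82 between 35 and 12 weeks and 0.37 between 66 and 12 weeks, and group 2 had -1.86 and -0.48. The sign between 66 and 12 weeks was thus turned in both groups by leaving out this library. Many members were chosen for its deviation, so these shifts are in part set by the choice.

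Without 12-week replicate 3, more members were called. The counts became 26 between 35 and 12 weeks (limma, 15 higher and 11 lower at 35 weeks), beside 4% of the 11461 genes tested, and 32 between 66 and 35 weeks (13 higher and 19 lower at 66 weeks), beside 13.2%. Between 66 and 12 weeks 1 member was called, beside 0.122%. Of the 26, 15 belonged to group 1 and 11 to group 2. ENSAPLG00000002226 was among those called between 35 and 12 weeks, with a log2 fold change of 4.81 and an adjusted p of 0.0359 (limma). Its log2 fold change over all 9 libraries was 2.48. Many members were chosen for the deviation of this library, so leaving it out removes part of the spread that defined them. It also moves their 12-week mean to that of replicates 1 and 2. The calls against 12 weeks thus rest on values the rule used and are given as a description. The fold changes between 66 and 35 weeks do not use this library, which enters that test through the pooled spread. That spread chose the members, and their median SE there was 0.82 with this library and 0.66 without it. The rise in members called between 66 and 35 weeks is therefore also in part set by the choice. In the list itself, 87 of the 150 members remained when the rule was applied to the other 8 libraries.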

How the data were processed

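Per the labels' protocols, total RNA was purified on columns and sequenced as Illumina libraries. The authors deposited 1 table of FPKM values, per the file headers. The submitters' processing notes name TopHat2 2.0.9, Cufflinks 2.1.1 and Cuffdiff without their roles. The sources used here do not give the genome build, the annotation or any scaling of libraries against each other, and the depth in fragments is unknown.

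From these values log2(FPKM + 1) was computed. Members were ranked by the average of the 3 within-age variances (mean of at least 10 FPKM, above 0 in all 9 libraries), and grouped by average linkage (scipy 1.17.1). Ages were compared with limma 3.58.1 in R 4.3.3 (1 model over 9 libraries, eBayes with trend, two-sided, Benjamini-Hochberg adjustment over 11491 genes, threshold 0.05). Each p-value rests on a spread between birds that is pooled over all 3 ages and moderated across genes. The birds of the age not compared therefore enter it as well. Python 3.11.15 with numpy 2.4.6, pandas 2.3.3 and, for plots, matplotlib 3.10.9 did the rest. The fit and the ranking were tested on simulated data. The members and lists were chosen with earlier results of these data known. Named genes were, without symbols, the 2 members of highest variance whose largest deviation was upward and the 2 whose was downward; others go by rank. The gene and marker lists set up for this work could not be matched without symbols. Over all genes tested, the deviations of libraries with the same replicate number correlated weakly, as given in the closing section.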

Additional observations from a re-analysis of the deposited data

How the results depend on the processing

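Alternatives that used the variance of single ages, or of 35 and 66 weeks, and the grouping, shares, first component and group medians without 12-week replicate 3 were chosen after seeing the data. Where no cause is given for a change, the cause was not tested. Of the 150 members, 138 remained with a pseudocount of 0.1, 140 with quantile normalization, 148 after the trend with level was taken out and 102 by the median of the 3 variances. A mean of at least 50 FPKM kept 58, all of the members at that level. With zeros allowed 1 remained, since 149 of the 150 highest genes were then listed at 0 in some library, and such a 0 can be a failed estimate. The variance at 12, 35 or 66 weeks alone kept 97, 80 and 64, that of 35 and 66 weeks kept 92, and leaving out 1 library kept 87 to 127. The share of 12-week replicate 3 ran from 27.3% to 33.3%. The 5 groups became 11 with complete linkage, 9 at a distance of 0.3 and 9 without 12-week replicate 3, where 40 members of group 1 stayed in 1 group and at most 10 of group 2 did.

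Over all genes, calls (limma) between 35 and 12 weeks, 2 in the report's fit, became 1 with quantile normalization, 0 with a pseudocount of 0.1, 6 without the filter and 0 to 459 without 1 library. Between 66 and 35 weeks, 404 became 219 with no filter and 2 to 1510 without 1 library. Between 66 and 12 weeks, 42 became 8 with quantile normalization and 1 to 16 without 1 library. Of the members, 2 were called between 66 and 35 weeks with a pseudocount of 0.1. Without 1 library, 0 to 26, 0 to 32 and 0 to 1 members were called between 35 and 12, 66 and 35, and 66 and 12 weeks. Without 1 library, the log2 fold change ran from -2.11 to 1.62 in ENSAPLG00000002226 between 66 and 12 weeks, positive without 12-week replicate 3. It ran from -1.99 to 0.71 in ENSAPLG00000008019 between 66 and 35 weeks, positive without 35-week replicate 3, and from -5.03 to 0.07 in ENSAPLG00000010999 between 35 and 12 weeks, positive without 12-week replicate 2. The median log2 fold change between 66 and 12 weeks was -0.55 in group 1 and 0.36 in group 2, and became 0.37 and -0.48 without 12-week replicate 3.

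Over all genes tested, the deviations of libraries with the same replicate number correlated from -0.0939 to 0.215 over 9 pairs, with 2 above 0.1. These were replicates 1 (0.156) and 3 (0.215) between 12 and 35 weeks, and unlike numbers were not compared. This correlation was not computed in the members. In their first component the 12-week and 35-week weights had like signs for replicates 1 (-0.301 and -0.357) and 3 (0.719 and 0.205). For replicate 2 the signs were opposite (-0.418 and 0.152). With the replicate block, 0, 178 and 1 genes were called between 35 and 12, 66 and 35, and 66 and 12 weeks, and 0, 1 and 0 members. That member was higher at 66 weeks and is not the member of rank 120.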
